A study of Mus musculus with 2 samples.

Results

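The 35 cell-cycle and proliferation genes described here were taken by gene symbol from the 55357 gene rows of 2 single-cell RNA libraries of mouse lung. All 35 were found in both. The mice were female Balb/C animals that carried orthotopic K7M2 osteosarcoma, a mouse bone tumour line, in both groups. One group received PBS and the other 1V209-Cho-Lip, named in the series title as a TLR7 agonist nanomedicine. Dose, schedule, time of sampling and age are not given in the sources used here, and the series title concerns lung metastasis of this tumour and the immune cells around it. Each library pooled the lungs of 3 mice per the series description, although the sample titles name a single mouse, so there was 1 library per group and no replicate. A response to treatment and a difference between the libraries cannot be told apart for any value below, and no test was made.

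Cells divide through a fixed order of steps, each with its own genes. E2F factors switch on the genes of DNA synthesis before S phase, and cyclins with their partner kinase Cdk1 then drive entry into mitosis. Mitotic genes are held silent in resting cells by the DREAM complex and are activated by B-Myb and FoxM1 with the MuvB core as cells approach mitosis. In the resting adult lung few cells divide, whereas tumour cells, activated lymphocytes and some tissue macrophages do.

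The promoters of these genes can be searched for the strings that E2F and MuvB complexes read, and 4 are printed as examples, 1 replication gene, the mitotic kinase and its cyclin, and 1 chromosome gene. RefSeq promoters (build GRCm38.p6, 250 bases before to 50 after the start) matched 29 of the 35 genes. Those not matched are Exo1, Ccna2, Aurkb, Tpx2, Kif20a and Stmn1. Capitals mark matches on either strand to CCAAT (the NF-Y box), to TTTGAA or TTTAAA (the cell cycle genes homology region, CHR, read by MuvB complexes) and to 5 E2F strings, TTCCCGCC, TTTCCCGC, TTTGGCGC, TTCGCGCC and TTTCGCGC. The 5 E2F strings share letters and can overlap. Mcm5 (chr8:75109259-75109558, plus strand) encodes a subunit of the replicative helicase, and Cdk1 (chr10:69352863-69353162, minus strand) the kinase that starts mitosis. Ccnb2 (chr9:70421505-70421804, minus strand) encodes a B-type cyclin that activates Cdk1, and Top2a (chr11:99024140-99024439, minus strand) the topoisomerase that untangles sister chromosomes.
Mcm5: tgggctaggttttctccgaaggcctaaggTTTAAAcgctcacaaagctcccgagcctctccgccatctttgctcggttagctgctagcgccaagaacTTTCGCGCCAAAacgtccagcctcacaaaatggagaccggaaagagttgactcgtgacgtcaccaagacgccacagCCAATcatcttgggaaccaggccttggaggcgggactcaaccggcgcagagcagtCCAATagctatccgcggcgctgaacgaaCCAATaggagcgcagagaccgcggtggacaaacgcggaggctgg
Cdk1: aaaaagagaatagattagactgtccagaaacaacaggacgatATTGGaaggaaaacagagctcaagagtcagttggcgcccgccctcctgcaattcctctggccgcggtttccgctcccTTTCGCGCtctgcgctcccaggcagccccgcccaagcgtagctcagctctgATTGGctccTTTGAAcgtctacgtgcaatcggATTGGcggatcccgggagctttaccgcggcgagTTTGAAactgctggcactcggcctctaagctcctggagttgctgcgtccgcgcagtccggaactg
Ccnb2: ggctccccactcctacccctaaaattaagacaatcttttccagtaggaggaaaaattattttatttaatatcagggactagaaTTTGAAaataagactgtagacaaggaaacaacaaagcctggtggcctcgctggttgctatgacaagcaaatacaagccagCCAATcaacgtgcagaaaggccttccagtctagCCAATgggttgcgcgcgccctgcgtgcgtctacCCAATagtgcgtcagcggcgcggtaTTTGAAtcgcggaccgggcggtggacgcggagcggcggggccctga
Top2a: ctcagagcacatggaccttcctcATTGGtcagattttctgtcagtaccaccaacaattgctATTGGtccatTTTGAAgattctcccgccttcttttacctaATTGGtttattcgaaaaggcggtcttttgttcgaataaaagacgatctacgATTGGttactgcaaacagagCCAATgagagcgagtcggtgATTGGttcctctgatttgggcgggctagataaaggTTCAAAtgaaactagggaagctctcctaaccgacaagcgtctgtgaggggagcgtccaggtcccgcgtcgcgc
In Mcm5 the 3 E2F strings found overlap in a single run from position -153 to -142, counted from the start, and the promoter also has TTTAAA at -221 to -216 and 3 CCAAT boxes. Cdk1 holds an E2F string at -131 to -124, 3 CCAAT boxes, and TTTGAA at -71 to -66 and again at -15 to -10. The Ccnb2 promoter has 3 CCAAT boxes and TTTGAA at -167 to -162 and, past the start, at 5 to 10. Top2a has 6 CCAAT boxes, with TTTGAA at -179 to -174 and on the other strand at -23 to -18. Over the 29 promoters CCAAT was found in 25 (86.2%), against 37.4% of 32817 RefSeq promoters of the same length. At least 1 CHR string was found in 22 (75.9%, against 27.6%), and at least 1 E2F string in 5 (17.2%, against 3.84%), namely Mcm3, Mcm5, Mcm6, Rrm1 and Cdk1. Of the 9 replication promoters 4 held an E2F string and 4 a CHR string. Outside that group Cdk1 alone held an E2F string. CHR strings were in all 3 cyclin and Cdk1 promoters and 3 of 4 mitotic kinase and checkpoint promoters. They were also in all 5 centromere and passenger, 4 of 5 spindle and all 3 chromosome and turnover promoters. The strings therefore leaned by role but did not divide the genes cleanly. A match describes the letters in this window and no more.

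Expression was counted in unique molecular identifiers (UMIs, each 1 captured RNA molecule) and is given as CPM, the UMIs of a gene out of each 1000000 UMIs of the cells summed. The libraries held 54843992 (treated) and 58156102 (PBS) UMIs, and filtering left 12265 and 12654 cells, whose median depths were 2506 and 2198 UMIs. The cell barcodes shared by both libraries numbered 268. Cells were put in classes by lung marker genes and are called "like" for that reason; 8.15% of treated and 12.6% of PBS cells stayed unassigned. Lung was represented in both libraries, with 234 and 279 alveolar type 2 (AT2)-like cells and 2186 and 2441 endothelial-like cells. Cells with at least 100 UMIs of Def8, here Def8-high cells, were set apart first; they numbered 38 and 106, and no label names them. Ratios are treated over PBS, and intervals are 95% and cover counting error only.

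Over all kept cells the 35 genes summed to 755 CPM after treatment and 1313 CPM with PBS, a ratio of 0.575 (0.567 to 0.582). Of the 35, 31 were at least 1.5-fold lower in the treated library and none was at least 1.5-fold higher. Among the 20415 genes with at least 20 UMIs over both libraries, 20.2% were that much lower and 14.0% that much higher. The median log2 ratio was -0.85 over the 35 genes and -0.20 over all genes measured.

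**Figure D1:**
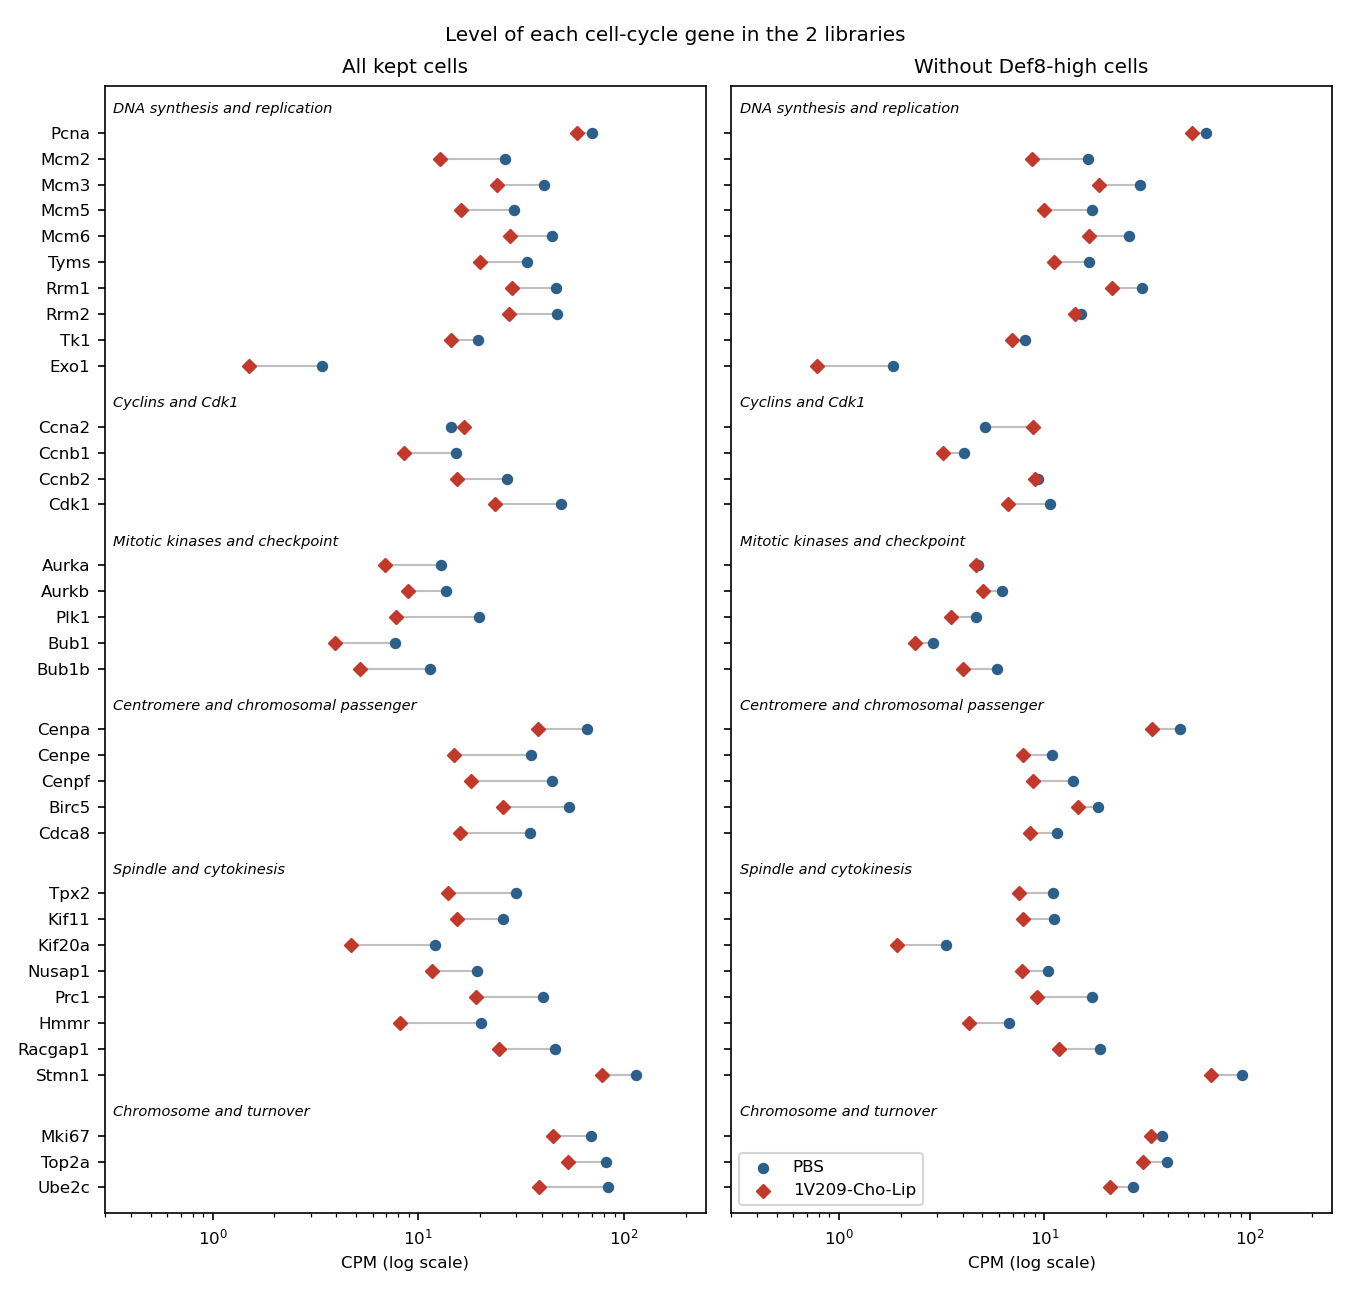
Level of each of the 35 genes in CPM on a log axis, in the PBS library (circles) and the 1V209-Cho-Lip library (diamonds), over all kept cells (left) and without Def8-high cells (right); each point is 1 library. Over all kept cells every gene but Ccna2 lies lower in the treated library, and the gaps are narrower for most genes on the right.

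The 10 DNA synthesis and replication genes had ratios of 0.440 to 0.852. Pcna, the sliding clamp that holds DNA polymerase on its template, stood at 59.4 CPM (treated) against 69.7 CPM, a ratio of 0.852 (0.809 to 0.897). Rrm1, the large subunit of the reductase that makes deoxynucleotides, was at 28.5 against 46.6 CPM, a ratio of 0.613 (0.572 to 0.657), and its partner Rrm2 at 27.6 against 47.0 CPM, a ratio of 0.588 (0.549 to 0.631). Both were past the 1.5-fold line and Pcna was not. The helicase subunits Mcm2, Mcm3, Mcm5 and Mcm6 lay at 0.480, 0.590, 0.555 and 0.626. Tyms, which makes thymidylate, was at 0.591, the salvage kinase Tk1 at 0.740, and Exo1, a 5′ exonuclease of DNA repair, at 0.440.

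Cyclins and Cdk1 were split by a single gene. Cdk1 stood at 23.5 against 49.4 CPM, a ratio of 0.475 (0.442 to 0.511). Ccnb2 stood at 15.4 against 27 CPM, a ratio of 0.568 (0.517 to 0.623), close to the other B-type cyclin Ccnb1 at 0.562. Ccna2, the cyclin of S phase and early mitosis, stood at 16.7 against 14.4 CPM, a ratio of 1.16 (1.04 to 1.29), and it alone of the 35 was higher in the treated library. It stayed above 1 when the libraries were scaled by TMM (1.33) or by median-of-ratios (1.30). The gene (ENSMUSG00000027715, chr3:36564865-36572150, minus strand, GENCODE vM21 on GRCm38) overlaps Exosc9, on the opposite strand, by 863 bases, and whether counting used strand is not given in the sources used here. Exosc9 itself had a ratio of 0.617.

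All 5 mitotic kinase and checkpoint genes were past the line. Plk1, which drives centrosome maturation and mitotic entry, stood at 7.79 against 19.7 CPM, a ratio of 0.396 (0.349 to 0.448). Aurkb, the kinase that corrects faulty attachments to the spindle, was at 8.89 against 13.7 CPM (0.648, 0.571 to 0.735), and Aurka, the kinase of spindle poles, at 6.88 against 12.9 CPM (0.532, 0.463 to 0.610). The spindle checkpoint genes Bub1 and Bub1b lay at 0.508 and 0.458.

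The 5 centromere and chromosomal passenger genes had the lowest summed ratio of the 6 role groups, 0.478 (0.462 to 0.494). Cenpa, the histone variant that marks centromeres, stood at 38.0 against 66.3 CPM (0.574, 0.541 to 0.609). Birc5, the passenger subunit survivin, was at 25.8 against 54.3 CPM (0.475, 0.443 to 0.509), and Cenpf, a large kinetochore protein, at 18.0 against 44.8 CPM (0.401, 0.370 to 0.435). Cenpe, the kinetochore motor, and Cdca8, the passenger subunit borealin, lay at 0.422 and 0.455.

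Spindle and cytokinesis genes ranged from 0.392 to 0.676. Stmn1, a tubulin-binding protein that is also present in cells that do not divide, stood at 77.9 against 115 CPM (0.676, 0.648 to 0.705) and was the only gene of this group short of the line. Racgap1, part of the complex that places the cleavage furrow, was at 24.6 against 46.4 CPM (0.530, 0.493 to 0.570), and Prc1, which bundles midzone microtubules, at 19.1 against 40.5 CPM (0.471, 0.434 to 0.510). Kif20a, a motor of the midzone, had the lowest ratio of all 35 genes, with 4.71 against 12.0 CPM (0.392, 0.334 to 0.459). The spindle assembly factor Tpx2, the bipolar motor Kif11, the microtubule binder Nusap1 and the receptor and spindle protein Hmmr lay at 0.464, 0.598, 0.598 and 0.405.

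Of the chromosome and turnover genes, Mki67, the Ki-67 protein that coats mitotic chromosomes, stood at 45.1 against 69.3 CPM (0.651, 0.616 to 0.688). Top2a was at 53.4 against 81.7 CPM (0.654, 0.621 to 0.688), and Ube2c, the ubiquitin-conjugating enzyme of the anaphase-promoting complex, at 38.8 against 84.1 CPM (0.461, 0.436 to 0.488). All 3 were past the line. Several other genes overlap a protein-coding neighbour on the opposite strand, namely Prc1, Kif20a, Cdca8, Nusap1, Tk1 and Ube2c. Mki67, Plk1 and Cenpf overlap small opposite-strand loci with at most 9 UMIs in a library. Kif11 holds 2 processed pseudogenes, AC137605.6 on the opposite strand and AC137605.4 on its own. Rrm1 overlaps Gm45399 on its own strand, with 12 treated and 9 PBS UMIs. UMIs of opposite-strand neighbours cannot be told apart if strand was ignored, and strand does not separate same-strand neighbours.

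Def8-high cells carried a large part of these transcripts. They made up 0.310% of treated and 0.838% of PBS cells and 5.67% and 14.3% of UMIs, with a median of 69996 and 61131 UMIs per cell. Of the UMIs of the 35 genes they carried 40.1% after treatment and 57.7% in PBS. Cdk1 was the gene with the largest part of its UMIs there, 73.3% and 81.4%, and Pcna was the gene with the smallest in the treated library, 17.3%, and in PBS, 24.7%.

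**Figure D2:**
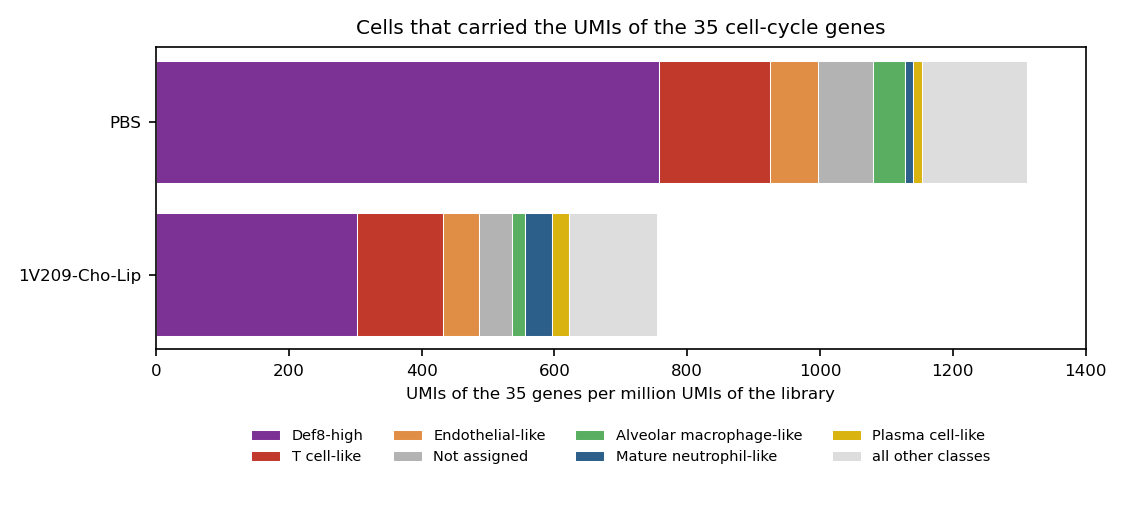
CPM of the 35 genes in each library, divided by the class of cell that carried them; each bar is 1 library. Def8-high cells gave 302 of 755 CPM after treatment and 758 of 1313 CPM with PBS, and T-cell-like cells 130 and 167 CPM.

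Within Def8-high cells the 35 genes stood at nearly the same summed level, 5334 against 5286 CPM, a ratio of 1.01 (0.990 to 1.03). Per cell, the genes summed to 5 to 1100 UMIs (median 340) after treatment and 4 to 1596 (median 241) with PBS, so the cells overlapped over nearly their whole range. A median of 33.0 and 31.0 of the 35 genes was detected per cell. Mki67 or Top2a was detected in 34 of 38 (89.5%, 75.2 to 97.1%) and in 95 of 106 (89.6%, 82.2 to 94.7%) cells. After each cell was thinned to 1000 UMIs the shares were 31.6% and 35.8%. Of the 35 genes 2 were at least 1.5-fold lower, against 11.1% of 11646 genes measured, and 3 at least 1.5-fold higher, against 13%. Bub1b, at 25.3 against 43.9 CPM (0.575, 0.433 to 0.753), and Cenpa, at 117 against 191 CPM (0.613, 0.539 to 0.695), were the lower pair. Higher were Ccna2, at 148 against 69.4 CPM (2.13, 1.85 to 2.44), Tk1, at 141 against 88.3 CPM (1.59, 1.40 to 1.82), and Pcna, at 182 against 120 CPM (1.51, 1.35 to 1.70). With the 5 cells richest in these genes left out of each library, a larger part of the 38 treated than of the 106 PBS cells, 6 genes were lower and 2 higher. The replication group summed to a ratio of 1.20 (1.15 to 1.25) and the centromere and passenger group to 0.737 (0.701 to 0.774). Near the Def8 threshold there were few cells: 5 treated and 11 PBS cells had 100 to 199 Def8 UMIs, and 3 and 22 had 50 to 99.

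Without Def8-high cells the 35 genes summed to 479 against 648 CPM, a ratio of 0.740 (0.727 to 0.754), and the median log2 ratio was -0.48 against -0.20 over all genes. Of the 35, 11 were at least 1.5-fold lower, against 18.0% of 19956 genes, and 1 was at least 1.5-fold higher, against 13.1%. The 11 were Mcm2, Mcm3, Mcm5, Mcm6, Exo1, Cdk1, Cenpf, Kif20a, Prc1, Hmmr and Racgap1, from Exo1 at 0.782 against 1.83 CPM (0.426, 0.275 to 0.649) up to Cenpf and Hmmr at 0.641. All 4 helicase subunits were among them. Ccna2 stood at 8.81 against 5.15 CPM (1.71, 1.44 to 2.04), in 124 treated and 105 PBS cells. Mki67 was at 32.9 against 37.1 CPM (0.889, 0.826 to 0.956), Rrm2 at 0.937 (0.836 to 1.05), Ccnb2 at 0.962 (0.833 to 1.11) and Aurka at 0.978 (0.798 to 1.20). With TMM scaling, which moved the log2 ratios of all genes up by about 0.20, only 4 genes stayed past the lower line, and with median-of-ratios scaling 5.

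**Figure D3:**
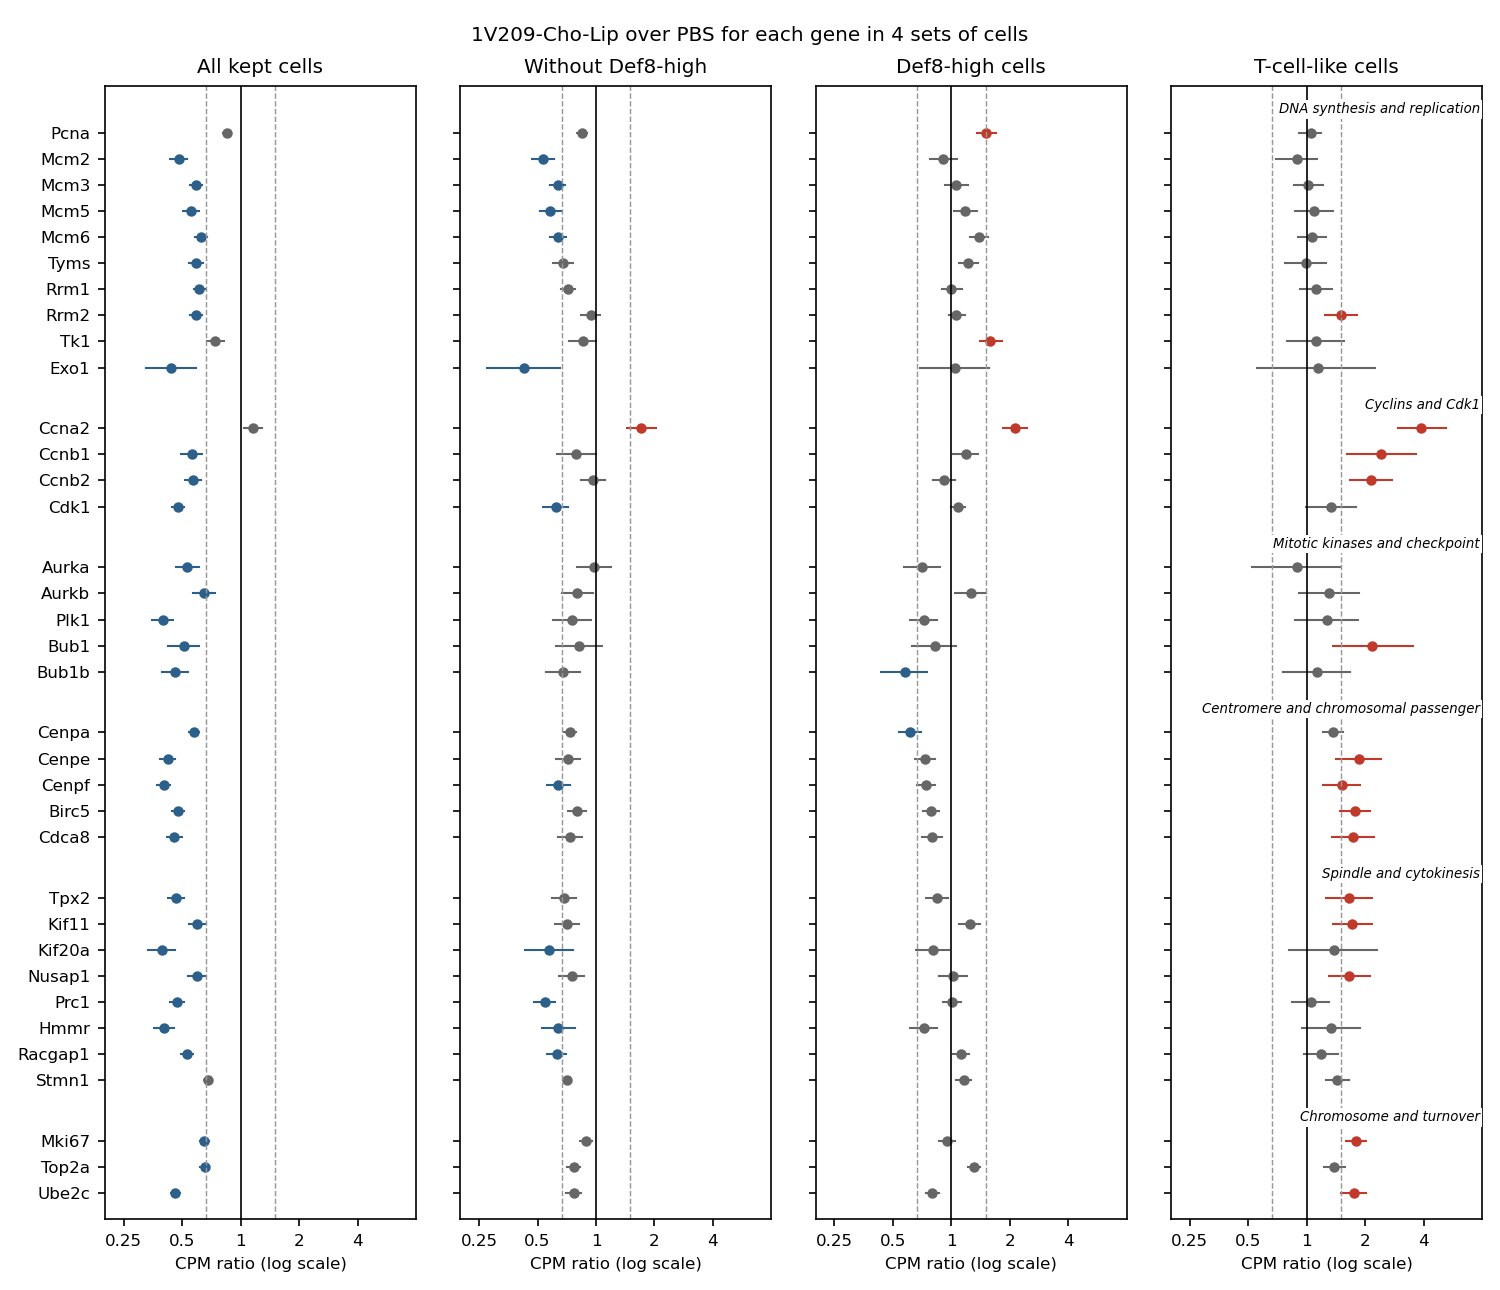
Treated over PBS CPM ratio of each gene on a log axis with its 95% counting interval, in all kept cells, without Def8-high cells, in Def8-high cells and in T-cell-like cells; dashed lines mark 1.5-fold, and red or blue points lie past them. Points lie to the left over all kept cells, around 1 in Def8-high cells and mostly right of 1 in T-cell-like cells.

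The mix of cells also differed between the libraries. Mature-neutrophil-like cells, which have left the cell cycle, made up 40.3% of treated and 13.4% of PBS cells, and T-cell-like cells 7.64% and 16.7%. Each class, Def8-high cells among them, was then given the same share of cells in both libraries. The summed ratio over all kept cells was then 0.929, with 0 of the 35 genes past the lower line and 1 past the upper. The share of all genes past the lines was not counted under this setting. Without Def8-high cells the same setting moved the summed ratio from 0.740 to 0.966. Without neutrophil-like cells the summed ratio was 0.735, and without both neutrophil-like and Def8-high cells 0.935. Outside Def8-high cells, 199 treated (1.63%) and 304 PBS (2.42%) cells held at least 3 of 27 of the genes. The 8 set aside by a fixed list, taken as also present in resting cells, were Stmn1, Pcna, Mcm2, Mcm3, Mcm5, Mcm6, Rrm1 and Tyms. Cenpa, kept among the 27, was detected in 7.14% and 9.78% of cells outside Def8-high cells, against 2.32% and 3.41% for Tyms. The 199 and 304 cells carried 58.1% and 53.6% of the UMIs of the 35 genes outside Def8-high cells.

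Cells with a UMI of Mki67 or Top2a were counted next. Most of them outside Def8-high cells, 310 of 466 treated and 468 of 724 PBS cells, held no UMI of 4 S phase genes (Rrm2, Tk1, Exo1, Tyms) or 9 mitotic genes (Ccnb1, Ccnb2, Plk1, Aurka, Cenpe, Cenpf, Hmmr, Kif20a, Ube2c). The share is therefore given as a share of cells with a transcript, not of dividing cells. In T-cell-like cells the same held for 48 of 89 and 115 of 185. Outside Def8-high cells they were 466 of 12227 (3.81%, 3.48 to 4.17%) after treatment and 724 of 12548 (5.77%, 5.37 to 6.19%) with PBS, a ratio of 0.661 (0.590 to 0.740). Thinned to 1000 UMIs per cell the shares were 1.5% of 11275 treated and 2.81% of 11191 PBS cells. Cells below 1000 UMIs, 952 treated and 1357 PBS, were left out of the thinned shares. With class shares set equal and no thinning the shares were 4.56% and 5.09%. Mature-neutrophil-like cells, which should lack both genes, were taken as the floor for such shares. They held a UMI in 1.90% of 4939 treated and 2.65% of 1696 PBS cells, at a median of 2318 and 1401.5 UMIs. After thinning, which left out 162 treated and 262 PBS mature-neutrophil-like cells, the shares were 0.649% and 1.74%. In these cells Def8 stood at 42.8 and 224 CPM, so more Def8 RNA was found outside Def8-high cells in the PBS library. At the proportions seen in Def8-high cells, that Def8 would bring 32.5 of their 214 treated and 20.8 of their 53 PBS Mki67 and Top2a UMIs. In PBS the like values were 5.49 of 7 in fibroblast-like, 14.3 of 51 in general-capillary-like and 10.9 of 78 in B-cell-like cells. They were 26.1 of 144 in classical-monocyte-like cells, with Def8 at 355 CPM. In interstitial-macrophage-like cells Def8 stood at 164 (treated) and 357 CPM, and the like values were 11.1 of 168 and 14.7 of 130. The part of such RNA in the shares was not tested. Classes at or below that floor are not read as dividing.

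**Figure D4:**
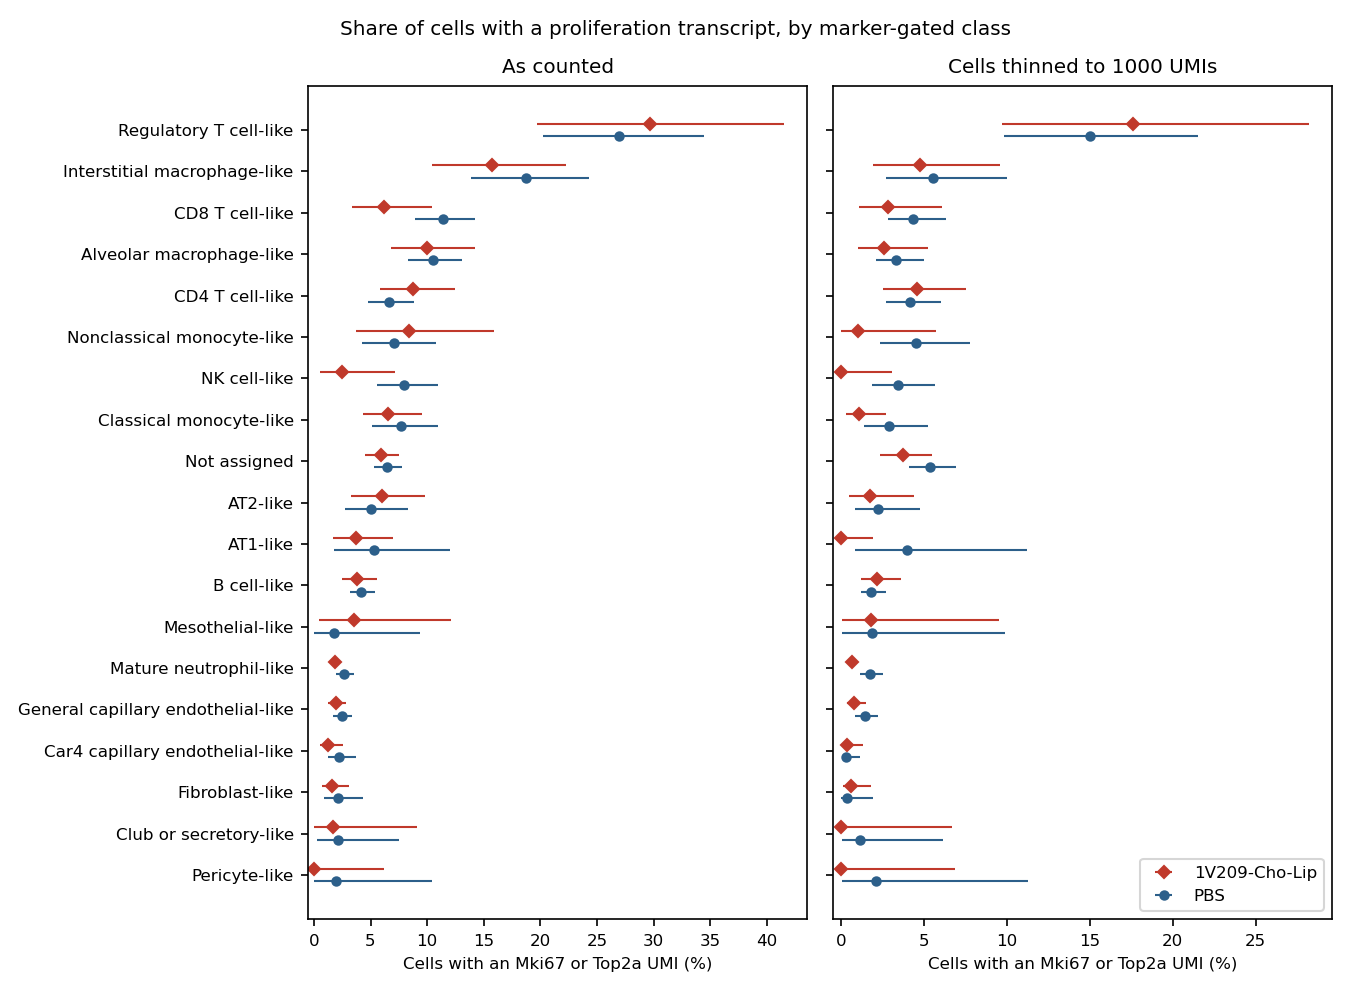
Percent of cells with at least 1 UMI of Mki67 or Top2a in each marker-gated class that held 50 cells or more per library. Shares are given as counted (left) and with each cell thinned to 1000 UMIs (right), where cells below 1000 UMIs are left out. Points are 1 library each and lines are exact 95% Clopper-Pearson intervals. Regulatory-T-cell-like cells lie highest in both libraries, at 29.7% and 26.9% as counted.

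Among 15 main classes that each held 50 cells or more per library, 11 had a lower summed level of the 35 genes in the treated library. For the share of cells 10 were lower, and pericyte-like cells (0 of 58 against 1 of 51) gave no ratio. Regulatory-T-cell-like cells, T-cell-like cells with a UMI of Foxp3, stood highest with 22 of 74 (29.7%, 19.7 to 41.5%) and 43 of 160 (26.9%, 20.2 to 34.4%) cells and 3611 against 3285 CPM. Their thinned shares were 17.6% and 15%, also the highest of these classes. Interstitial-macrophage-like cells had 15.7% (10.4 to 22.3%) and 18.7% (13.9 to 24.3%), and alveolar-macrophage-like cells 10.0% (6.77 to 14.2%) and 10.5% (8.27 to 13.1%). Thinned, with 12 treated and 50 PBS interstitial-macrophage-like cells too shallow to be kept, these were 4.76% and 5.56%, and 2.57% and 3.34%. Their summed levels lay below that of T-cell-like cells, so no order is read among these. Within each of these 3 classes the intervals of the 2 libraries overlapped. The share ratio was largest in mesothelial-like cells at 2.0, from 2 of 57 and 1 of 57 cells, where the summed level went the other way (0.463), and smallest in endothelial-like cells of no assigned subset at 0.244, from 3 of 242 and 14 of 276.

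T-cell-like cells went against the library as a whole. The 35 genes summed to 1569 against 1124 CPM, a ratio of 1.40 (1.35 to 1.44), at a median of 3402 and 2813 UMIs per cell. Of the 35, 14 were at least 1.5-fold higher, against 11.3% of 12229 genes, and 0 at least 1.5-fold lower, against 7.81%. The median log2 ratio was 0.44, and 0.02 over all genes. Cyclins led: Ccna2 stood at 42.3 against 10.8 CPM (3.90, 2.95 to 5.20), Ccnb1 at 15.8 against 6.50 CPM (2.42, 1.62 to 3.65) and Ccnb2 at 37.8 against 17.6 CPM (2.15, 1.67 to 2.75). The Ccna2 UMIs came from 25 of 937 treated and 35 of 2108 PBS cells, and the overlapping Exosc9 had a ratio of 0.696 in the same cells. Bub1 (2.18), Cenpe (1.85), Mki67 (1.80), Birc5 (1.78), Ube2c (1.75), Cdca8 (1.73), Kif11 (1.72), Nusap1 (1.66), Tpx2 (1.65), Cenpf (1.52) and Rrm2 (1.51) were the other 11. Replication genes as a group lay near 1, at 1.09 (1.02 to 1.16), with Pcna at 95.3 against 91.2 CPM and Mcm2 at 27.1 against 30.5 CPM.

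Few cells carried much of that level. The 5 T-cell-like cells richest in these genes held 29.5% of their UMIs after treatment and 15.5% with PBS, and without them the summed ratio was 1.19 and 5 genes were past the upper line. A fixed 5 cells was left out of each library, a larger part of the 937 treated than of the 2108 PBS cells. The share with Mki67 or Top2a was 89 of 937 (9.50%, 7.70 to 11.6%) and 185 of 2108 (8.78%, 7.60 to 10.1%), a ratio of 1.08 (0.850 to 1.37). Thinned it was 4.82% and 4.22%, and cells with at least 3 of the 27 genes were 5.44% and 3.84%. Under a stricter marker gate the share turned, to 65 of 679 (9.57%) and 148 of 1510 (9.80%). Def8 stood at 28.9 and 110 CPM in these cells. At the proportions seen in Def8-high cells that amount of Def8 would bring 6.14 of the 1014 treated and 25.2 of the 1166 PBS Mki67 and Top2a UMIs.

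CD4-T-cell-like cells showed the widest gap of the 3 T-cell subsets described, 1770 against 865 CPM (2.05, 1.92 to 2.18), 1.92 without their 5 richest cells and 1.36 as a mean of each cell's CPM. Birc5 was at 87.5 against 19.5 CPM there (4.49, 3.09 to 6.65) and Ccna2 at 42.2 against 7.0 CPM (6.03, 3.30 to 11.8). The share of cells with Mki67 or Top2a was 8.77% (5.86 to 12.5%) against 6.64% (4.82 to 8.86%), a ratio of 1.32 (0.832 to 2.09), and thinned 4.58% against 4.17%. In these cells 19 of 308 against 11 of 633 cells held at least 3 of the 27 genes. In CD8-T-cell-like cells level and share disagreed, so no direction is read. The level was 1551 against 1106 CPM (1.40, 1.31 to 1.5), the share 6.19% (3.34 to 10.4%) against 11.4% (8.90 to 14.2%), or 2.86% against 4.32% thinned, and without the 5 richest cells, which held 72.9% and 29.1% of the UMIs, the level ratio was 0.590. As a mean over cells it was 0.972. In regulatory-T-cell-like cells the level ratio of 1.10 (1.03 to 1.17) became 0.398 without the 5 richest cells, which held 82.7% and 43.4% of the UMIs. Leaving out 5 cells took more from the treated side, with 74 against 160 of these cells and 210 against 581 CD8-T-cell-like cells. No direction is read from that setting.

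NK-cell-like cells, innate lymphocytes that kill target cells, had 3 of 119 (2.52%, 0.523 to 7.19%) treated and 33 of 415 (7.95%, 5.54 to 11.0%) PBS cells with Mki67 or Top2a, a ratio of 0.317 (0.104 to 0.942). Mki67 stood at 5.57 against 52.4 CPM, from 2 and 57 UMIs (0.106, 0.0126 to 0.402), and Top2a at 5.57 against 59.7 CPM, from 2 and 65 UMIs. Thinned, 0 of 118 treated cells were left with a UMI, which allows a share of up to 2.54%, against 3.42% in PBS. The treated share has an interval that spans the treated floor of 1.90%. Cells with at least 3 of the 27 genes were 2.52% and 2.65%, a ratio of 0.951, and with NK-cell-like cells taken from clusters the share ratio was 0.732, so the size of this gap depends on the measure. Summed over all 35 genes the level was 629 against 919 CPM (0.685, 0.590 to 0.792), with Pcna at 103 against 83.6 CPM (1.23, 0.817 to 1.82) and Stmn1 at 111 against 130 CPM (0.859, 0.589 to 1.23). From clusters the level ratio was 1.27.

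In the 2 kinds of macrophage single genes had unlike ratios, but the summed levels rested on few cells. In interstitial-macrophage-like cells Ube2c was at 57.2 against 20.1 CPM (2.84, 1.78 to 4.69) and Mki67 at 78.7 against 51.5 CPM (1.53, 1.10 to 2.13), while the replication group had a ratio of 0.734 (0.628 to 0.856). The summed level was 910 against 785 CPM (1.16, 1.06 to 1.27), but 5 cells held 67.7% of the treated UMIs, and the ratio without the 5 richest cells was 0.606 and as a mean over cells 0.713. In alveolar-macrophage-like cells Ube2c was at 7.22 against 24.0 CPM (0.301, 0.172 to 0.498) and Top2a at 11.6 against 27.7 CPM (0.420, 0.271 to 0.631), whereas the replication group was at 1.09 (0.969 to 1.22). Their summed level was 372 against 463 CPM (0.804, 0.744 to 0.868), and the ratio was 0.755 without the 5 richest cells. Both kinds were below 1 in that setting, but 5 cells are a larger part of the treated classes. These held 159 against 230 interstitial-macrophage-like and 279 against 667 alveolar-macrophage-like cells. The difference between the kinds was not tested. Cells with at least 3 of the 27 genes were 5.38% and 3.30% of alveolar-macrophage-like cells, the other way from the share with Mki67 or Top2a.

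Endothelial-like cells, which line the vessels, held few of these transcripts. Their summed level was 447 against 539 CPM (0.830, 0.788 to 0.874), of which Stmn1 gave 222 against 293 CPM (0.757, 0.704 to 0.814). Only 26 of the 35 genes reached 20 UMIs; of these 8 were at least 1.5-fold lower, against 9.10% of 12967 genes, and 1, Ccna2, at least 1.5-fold higher, against 12.1%. Ccna2 rested on 19 and 8 UMIs in 12 and 7 cells. Mki67 or Top2a was detected in 1.65% (1.16 to 2.27%) against 2.70% (2.10 to 3.43%), at or near the floor. B-cell-like cells, with 3.83% (2.49 to 5.60%) and 4.18% (3.20 to 5.36%), had summed levels of 414 against 415 CPM (0.997, 0.913 to 1.09). That ratio was 0.820 with the stricter gate, 0.843 from clusters and 0.860 without the 5 richest cells. The share ratio of 0.915 became 2.16 with at least 2 UMIs required and 1.96 with at least 3 of the 27 genes, so no direction is read for these cells.

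Other genes of the cell cycle were counted from lists that held none of the 35. Over all kept cells 20.2% of all genes measured were at least 1.5-fold lower and 14.0% that much higher. Of 22 other replication genes 12 were lower and 0 higher by that measure, with a median log2 ratio of -0.62. Slbp, which binds histone mRNA, was at 76.7 against 84.9 CPM (0.903), Pclaf, which binds the Pcna clamp, at 42.8 against 65.5 CPM (0.653), Rfc2, a clamp loader subunit, highest at 0.917 and Uhrf1, a reader of DNA methylation, lowest at 0.487. Of 27 other mitotic genes 22 were lower and 0 higher, with a median of -0.79. H2az1, a histone variant, was at 0.759 and Tubb5, a tubulin, at 0.619, with the chromatin protein Hmgb2 highest at 1.44 and Anln, a scaffold of the cleavage furrow, lowest at 0.345. In T-cell-like cells 12 of these 27 were at least 1.5-fold higher, led by the kinetochore gene Spc25 at 2.39 (1.57 to 3.69). Of the 22 replication genes 2 were, near the 11.3% of all genes measured there.

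Over all kept cells 13 of 17 G1 cyclin, kinase and E2F genes lay below a ratio of 1, and 8 of 18 inhibitor and quiescence genes. The median log2 ratio over all genes measured was -0.20, so a ratio below 1 was common among all genes. Of 17 G1 cyclin, kinase and E2F genes 7 were at least 1.5-fold lower and 1 higher over all kept cells, against 20.2% and 14.0% of all genes. Their median log2 ratio was -0.54 and their summed ratio 0.765. Ccnd1, a cyclin of early G1, stood at 90.0 against 189 CPM (0.476, 0.458 to 0.494), Ccnd3, the main D-type cyclin of blood cells, at 323 against 276 CPM (1.17, 1.14 to 1.20), and Ccne1, the cyclin of S phase entry, at 3.06 against 1.55 CPM (1.97, 1.48 to 2.66). Of 18 inhibitor and quiescence genes 6 were higher and 2 lower, against 14.0% and 20.2% of all genes, with a median of 0.29 and a summed ratio of 1.72 (1.70 to 1.73). Btg2, an antiproliferative gene that is also high in neutrophils, stood at 2484 against 1124 CPM (2.21, 2.19 to 2.23), and Cdkn1a, the inhibitor p21, at 757 against 569 CPM (1.33, 1.31 to 1.35). Cdkn1c, the inhibitor p57, was at 11.8 against 2.26 CPM (5.22, 4.23 to 6.50), and Trp53, which encodes p53, lowest at 56.2 against 94.0 CPM (0.598, 0.569 to 0.628). In Def8-high cells 4 of the 16 inhibitor genes measured were higher and 0 lower, against 13% and 11.1% of 11646 genes measured there.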

How the data were processed

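Single-cell RNA from the lungs of 2 groups was measured in 1 library each. The authors deposited UMI counts per gene and barcode, not normalized, made with Cell Ranger 9.0.1, per the file headers, on mm10, per the submitters' processing notes. The annotation release is not given in the sources used here. The labels also name a total RNA extraction, beside the 10x protocol. No column of the files was left unused (0).

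Barcodes below 500 UMIs or 200 genes, or above 20% of UMIs from mitochondrial genes, were dropped. Scrublet in scanpy 1.11.5 (expected rate 0.8% per 1000 barcodes) called 1455 (10.6%) treated and 1906 (13.1%) PBS barcodes as doublets, which were left out. Classes came from marker gates per cell: at least 3 markers of a class detected, and a higher fraction than of any other class. Def8-high cells were set apart first. Interval methods were the exact conditional binomial for CPM ratios, the score method for share ratios and Clopper-Pearson for shares. PCR copies were collapsed by UMI, so the counts are molecules, and intervals cover counting error only. Genes needed 20 UMIs over both libraries, and a gene was counted as lower or higher past 1.5-fold. A count of 0 was given a limit of 3 counts. Thinning drew 1000 UMIs per cell and left out cells with fewer.

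The members, lists and rules were chosen with earlier results of these data known. Named are up to 3 genes per role group with the most UMIs, the highest and lowest ratios, and for other lists the 2 genes with the most UMIs and the extremes; classes named are the 6 with the highest shares, the extremes and mature neutrophils. NK-cell-like, B-cell-like and endothelial-like cells, genes named within a class, and the genes that passed a line, were chosen after their values were seen. On simulated counts for 20108 genes with 200 changed, the whole-library rule recovered 94.0% of genes raised 2-fold and 91.7% of genes lowered 2-fold, and called 4.82% of unchanged genes; this simulation holds counting error alone. Alternatives changed scaling (edgeR 4.0.16 TMM, median-of-ratios), filters, doublets, gates, clusters and thresholds. Scripts ran under Python 3.11.15 with scipy 1.17.1, numpy 2.4.6 and pandas 2.3.3, and under R 4.3.3.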

Additional observations from a re-analysis of the deposited data

Results flagged for a closer look

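The summed CPM ratio of the 35 genes lay on opposite sides of 1 in 2 well-filled classes, 1.40 (1.35 to 1.44) in T-cell-like and 0.830 (0.788 to 0.874) in endothelial-like cells. With 1 library per group the difference between the classes was not tested.

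Conventional-dendritic-like cells fell short of 50 cells in the treated library and entered no comparison, yet 15 of 34 treated cells (44.1%, 27.2 to 62.1%) held Mki67 or Top2a, against 5 of 51 PBS cells (9.80%, 3.26 to 21.4%). With this class taken from clusters the shares were 32 of 90 (35.6%) and 31 of 162 (19.1%), while the summed level was 1029 against 1174 CPM, so share and level pointed opposite ways there.

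Barcodes called as doublets, also outside every comparison, held Mki67 or Top2a in 9.76% of the PBS calls, above 5.02% of the treated calls and 6.47% of kept PBS cells; 2 treated and 22 PBS called doublets were Def8-high.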

How the results depend on the processing

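Over all kept cells the summed ratio of 0.575 was 0.658 with TMM and 0.643 with median-of-ratios scaling, 0.735 without neutrophil gates, 0.615 as a mean of each cell's CPM, 0.929 with class shares set equal and 0.539 without Stmn1, Top2a and Pcna. The 31 lower genes became 21 with TMM and 24 with median-of-ratios scaling. They became 17 without neutrophil gates, 0 with class shares set equal and 14 at a 2-fold line, and 1 gene was higher without neutrophil gates and with class shares set equal. Without Def8-high cells the ratio of 0.740 was 0.848, 0.823, 0.935, 0.633 and 0.966 under the first 5 of these settings, and 0.721 with the Def8 line at 200 UMIs. The 11 lower genes became 4 (TMM), 5 (median-of-ratios), 1 (without neutrophil gates), 1 (class shares equal) and 1 (2-fold), and the 1 higher gene became 0 at 2-fold. The share ratio of 0.661 was 0.815 without neutrophil gates, 0.534 thinned, 0.746 with at least 2 UMIs required and 0.896 with class shares set equal. The number of classes with a lower share, 10 of the 14 that gave a ratio, became 5 of 12 with at least 2 UMIs required. In T-cell-like cells, under settings chosen after seeing the data, the 14 higher genes became 5 without the 5 richest cells, 23 in clusters and 4 at 2-fold. In Def8-high cells, under settings likewise added, the 3 higher genes became 1 at 2-fold, and the 2 lower became 1 with the Def8 line at 50 or 200 UMIs or with doublets kept, 6 without the 5 richest cells and 0 at 2-fold. Leaving out 5 cells per library took a larger part of a class in the library where it had fewer cells. Directions within single classes often turned. Besides the turns given with each class above, the level ratio of AT2-like cells, 1.35, became 0.830 as a mean over cells, 0.921 under the stricter gate, 0.651 in clusters and 0.879 without the 5 richest cells. That of Car4-capillary-like cells, 1.11, became 0.894 with doublets kept, and in AT1-like and fibroblast-like cells 0.791 and 1.18 became 1.14 (stricter gate) and 0.937 (mean over cells). Thinning took the share ratio from 0.763 to 1.75 in fibroblast-like and from 1.20 to 0.232 in nonclassical-monocyte-like cells. The level ratio became 2.03 in club-like cells under the stricter gate. In mesothelial-like cells it became 1.18 as a mean over cells, 1.23 in clusters and 1.01 without 5 cells, and the share ratio 0.358 with doublets kept and 0.964 thinned. Pericyte-like cells gave 1.03, 1.65 and 2.33 for the same 3 level settings, and Car4-capillary-like cells a thinned share ratio of 1.17. The cause was not tested, beyond what each setting leaves out. Under the alternatives tried, 91 further values of the main results stayed close to those reported and 37 moved, all given here. No paired analysis was possible because each group is 1 library. Depth limits the small classes, where intervals span more than 2-fold.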

Other observations

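Plasma-cell-like cells, which secrete antibody, were too few for a comparison, but most carried these genes: 11 of 15 treated (73.3%, 44.9 to 92.2%) and 9 of 15 PBS cells (60.0%, 32.3 to 83.7%) held Mki67 or Top2a, and the 35 genes stood at 4313 and 2979 CPM. Called from clusters the class was larger and the shares were 8.82% of 170 and 11.9% of 101 cells. Whether those clusters hold other cells was not tested. Granule-rich-neutrophil-like cells, the youngest neutrophils, held a UMI in 3 of 37 and 2 of 14 cells. Erythroid-like cells did so in 2 of 24 and 10 of 134. Cells left without a class held 59 of 999 (5.91%) and 103 of 1592 (6.47%) positive cells, and they carried 6.46% and 6.34% of the UMIs of the 35 genes.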
